A study of Mus musculus with 3 samples.

Results

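The genes described here are the 3 EGR zinc-finger factors Egr1, Egr2 and Egr3, the 2 EGR corepressors Nab1 and Nab2, and the 3 orphan nuclear receptors Nr4a1, Nr4a2 and Nr4a3. They were chosen by symbol, and all 8 were found among 55536 annotated genes, 22028 of them protein-coding. Values come from 3 libraries of total RNA, depleted of ribosomal RNA, from the chromatin fraction of macrophages that were grown from C57BL/6J bone marrow. Every library had the same treatment, with Lipid A (the active part of lipopolysaccharide, a Toll-like receptor 4 ligand) at 100 ng/ml for 12 h, a washout of 12 h, and Lipid A at 100 ng/ml again for 40 min. They are biological replicates 1, 2 and 3 of 1 group, with the age and sex of the mice not collected. With no untreated or once-treated library in the series, the values are levels after the repeated stimulus, and no induction or tolerance can be read from them.

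Immediate-early genes are transcribed within minutes of a stimulus without new protein synthesis, because the factors that switch them on, such as SRF with its ETS-type partners and CREB, are already present and need only be phosphorylated. EGR proteins bind GC-rich sites and act as activators, and NAB proteins bind to EGR1, EGR2 and EGR3 and turn them into repressors, so that EGR-driven Nab2 forms a feedback loop. NR4A receptors have no known physiological ligand that switches them on and off, so their activity follows largely from how much of each is made, and in macrophages they are among the early responders to lipopolysaccharide. In the chromatin fraction nascent and newly made RNA is enriched over mature cytoplasmic mRNA, so a level here is nearer to recent transcription than a whole-cell level would be.

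The promoter windows below are shown because 5 of the 6 genes with an entry in the RefSeq promoter table carry the CREB-type core TGACG, and because Nab1 carries the recognition sequence of its own partners. Each window runs from 250 bases before to 50 bases after a transcript start, 300 bases in all, in the direction of the gene, and is taken from RefSeq on GRCm38.p6, the assembly of mm10. The 6 matched genes had 10 windows, and 1 start is shown for each of 5 genes. Egr1 and Egr3 had no such window, so no motif was searched for them. Capitals mark TGACG or its reverse complement CGTCA, the CArG box bound by SRF (in Egr2), and the EGR site GCGTGGGCG or its reverse complement (in Nab1).
Nr4a1, chr15:101266596-101266895, plus strand: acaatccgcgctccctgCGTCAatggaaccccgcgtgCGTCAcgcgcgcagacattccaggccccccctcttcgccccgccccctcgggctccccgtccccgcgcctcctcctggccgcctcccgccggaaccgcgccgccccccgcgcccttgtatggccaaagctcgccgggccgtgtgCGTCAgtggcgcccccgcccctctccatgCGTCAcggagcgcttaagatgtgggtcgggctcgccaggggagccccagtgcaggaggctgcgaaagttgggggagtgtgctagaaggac
Nr4a2, chr2:57123954-57124253, minus strand: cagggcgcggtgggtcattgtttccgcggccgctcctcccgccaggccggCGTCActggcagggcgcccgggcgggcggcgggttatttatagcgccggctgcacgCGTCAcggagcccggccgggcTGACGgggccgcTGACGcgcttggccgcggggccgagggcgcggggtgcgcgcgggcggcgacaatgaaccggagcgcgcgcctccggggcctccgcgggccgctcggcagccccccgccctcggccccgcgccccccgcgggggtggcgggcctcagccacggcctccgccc
Nr4a3, chr4:48045055-48045354, plus strand: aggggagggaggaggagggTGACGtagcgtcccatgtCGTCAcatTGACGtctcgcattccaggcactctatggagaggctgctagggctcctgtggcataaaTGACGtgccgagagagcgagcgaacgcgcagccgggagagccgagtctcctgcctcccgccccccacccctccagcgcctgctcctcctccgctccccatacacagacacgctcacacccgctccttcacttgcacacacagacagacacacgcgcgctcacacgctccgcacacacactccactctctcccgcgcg
Egr2, chr10:67537619-67537918, plus strand: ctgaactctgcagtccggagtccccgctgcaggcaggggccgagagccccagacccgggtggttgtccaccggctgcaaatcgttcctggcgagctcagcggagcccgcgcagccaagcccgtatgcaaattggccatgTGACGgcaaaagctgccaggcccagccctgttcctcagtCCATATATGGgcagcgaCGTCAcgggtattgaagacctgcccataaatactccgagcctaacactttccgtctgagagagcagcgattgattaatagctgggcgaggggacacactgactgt
Nab1, chr1:52500399-52500698, minus strand: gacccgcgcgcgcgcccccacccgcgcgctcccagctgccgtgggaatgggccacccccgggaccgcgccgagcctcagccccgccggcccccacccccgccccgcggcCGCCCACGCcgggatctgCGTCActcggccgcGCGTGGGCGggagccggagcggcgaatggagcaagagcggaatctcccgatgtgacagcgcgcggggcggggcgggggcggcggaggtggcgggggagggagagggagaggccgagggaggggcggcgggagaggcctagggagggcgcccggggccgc

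In these windows Nr4a1, Nr4a2 and Nr4a3 each held 4 TGACG matches over both strands, Egr2 held 2 and Nab1 held 1. TGACG occurs in 20.8% of the 32851 windows of the table, read the same way on both strands. The full palindrome TGACGTCA was in none of the member windows and in 1.79% of all windows. The 4 matches of Nr4a1 all read CGTCA and lay between positions -233 and -36 from the start site. In Egr2 a CArG box lay at positions -72 to -63 from the start, and such a box was in 1.63% of all windows. Of the 6 matched genes only Nab1 had the EGR site GCGTGGGCG. It held 2 matches, at positions -141 to -133 and -109 to -101 from the start, and a match was in 0.612% of all windows. The 2 Nab1 matches face opposite ways. All positions here count from a RefSeq start. For Nab1 and Nr4a3, no transcript of the annotation used for the counts started within 60 bases of it. Both Nab1 matches lie inside the first exon of the transcript Nab1-201 and upstream of the start of Nab1-205. The core GTGGGCG of the EGR site lies inside both Nab1 matches. It was also in an Egr2 window that is not shown, at positions -31 to -25 from its start, and occurred in 7.97% of all windows. The NR4A recognition sequence AAAGGTCA was in no member window and in 1.51% of all windows. A GC box (GGGCGG) was found in 7 of the 10 windows of the matched genes and in 35.7% of all windows. All 6 matched genes had such a window, but the Egr2 window shown held no GC box. TATAAA was found only for Nr4a2, on the opposite strand, against 13.6% of all windows. By name alone, an NF-kB site was matched in the Nab1 and Nr4a1 windows and in 4.51% of all. The 5 windows shown are richer in G and C (60% to 81.7%) than the median window (52.7%), and most of these motifs are themselves GC-rich. A match shows only that these letters are present.

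The gene tables hold 13802716, 17187524 and 16502809 expected counts in replicates 1, 2 and 3, and 14320 genes averaged at least 10 expected counts, the limit used here for calling a gene detected. Of the protein-coding genes, 10952 (49.7%) were detected. All 6 macrophage markers were detected, with means of 36.2 to 368 TPM (transcript abundance corrected for length and library size), led by Adgre1. No neutrophil, T cell, B cell or natural killer cell marker was detected in the gene table, and of the dendritic cell markers only Zbtb46 was, at 0.423 TPM. In the table made from the reads 2 T cell markers (Cd3d at 15.6 TPM and Cd8a at 2.06 TPM), 1 B cell marker (Ms4a1 at 0.756 TPM) and all 3 dendritic cell markers passed the same limit, and their part in the results was not tested. The 3 collagen genes used as fibroblast markers were all detected, with means of 14.3 to 20.7 counts and 0.243 to 0.360 TPM. Their summed levels were 0, 0.92 and 1.68 TPM in replicates 1, 2 and 3. The RNA input to the libraries was 1 µg, 250 ng and 500 ng. Because it differs in every library, it cannot be told apart from any other difference between them.

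All 8 genes were detected, with means from 0.63 to 108 TPM. Egr1 stood far above the rest, Nab1 and Egr2 followed, Egr3, Nr4a1 and Nab2 lay close to the median of detected protein-coding genes, and Nr4a2 and Nr4a3 were near the detection limit. The median of the 8 mean levels was 7.06 TPM, beside 7.32 TPM over all detected protein-coding genes. Together the 8 genes held 0.0419% of all counts. Their summed level was 157.5, 137.9 and 240.3 TPM in replicates 1, 2 and 3, so it was highest in replicate 3.

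**Figure D1:**
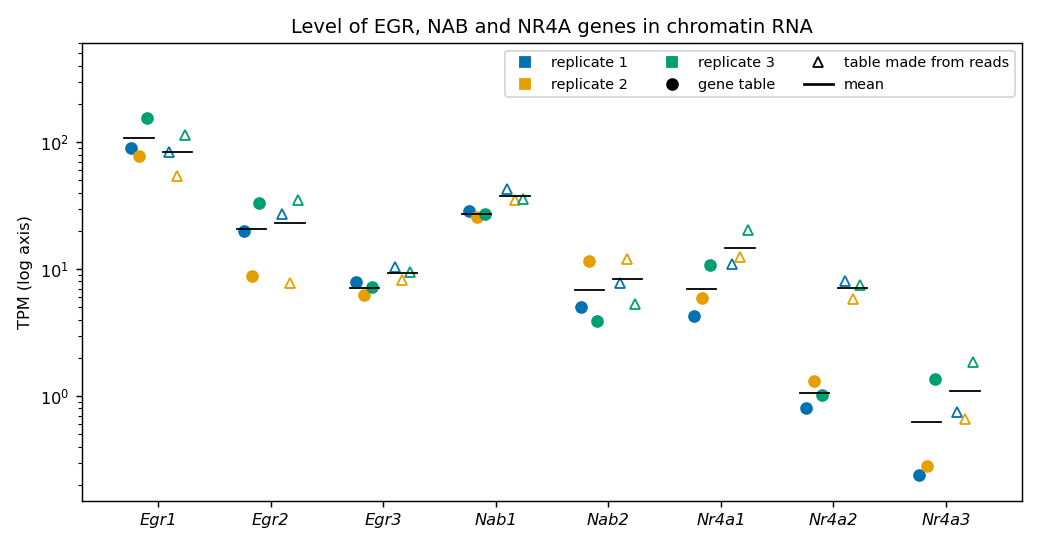
TPM of the 8 genes in each library on a log axis, with filled circles for the gene table, open triangles for the table made from the reads, colours for replicates and bars for means. Egr1 lies above 77 TPM in every library of the gene table, while every Nr4a2 and Nr4a3 value of that table lies below 1.4 TPM.

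Egr1 (ENSMUSG00000038418.7, chr18:34859823-34864984, plus strand in mm10) encodes the founding member of its family, a factor made within minutes of growth factor or Toll-like receptor signals. It had 90.3, 77.7 and 155 TPM in replicates 1, 2 and 3, from 3732, 3296 and 6128 expected counts. Its mean of 108 ± 41.7 TPM (SD, n = 3) ranked 569th among all protein-coding genes, at percentile 97.4. Replicate 3 stood above the other libraries, and replicates 1 and 2 were closer together in TPM. In CPM, counts relative to library sizes that were scaled by the trimmed mean of M values (TMM), Egr1 had 274, 179 and 397 CPM, a 2.22-fold range (ranges in CPM are from log2 CPM with a prior count of 0.5). All 3 Egr1 values lay above every value of every other member. In the table made from the reads Egr1 had 84.35, 54.58 and 114 TPM in replicates 1, 2 and 3, at percentile 95.2 of protein-coding genes. The upper credibility bounds that the authors gave with their posterior mean TPM also lay below its TPM, at 86.4, 73.9 and 146 TPM.

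Egr2 (ENSMUSG00000037868.15, chr10:67535475-67542188, plus strand) is best known as the regulator of myelination in Schwann cells and also acts in monocyte and macrophage differentiation. It had 20.0, 8.80 and 33.3 TPM, from 740, 339 and 1170 expected counts, with a mean of 20.7 ± 12.3 TPM (SD, n = 3). Replicate 2 was the lowest and replicate 3 the highest, with a 4.11-fold range in TMM-scaled CPM. The SD of its log2 CPM was 1.07, which lay at percentile 98.0 of all genes tested, beside a median of 0.26, and it was 0.34 without replicate 2. Its tagwise biological coefficient of variation in edgeR was 0.365, against a median of 0.221.

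Egr3 (ENSMUSG00000033730.4, chr14:70077203-70082614, plus strand), known for its part with Egr2 in T cell tolerance and for muscle spindle development, was the lowest and steadiest of the 3 factors. It had 7.90, 6.30 and 7.23 TPM, from 364, 315 and 346 expected counts, and a mean of 7.14 ± 0.803 TPM (SD, n = 3). The libraries differed by 1.56-fold in CPM, with replicate 1 highest and replicate 2 lowest. Within each library Egr1 exceeded Egr3 in TPM by 11.4, 12.3 and 21.5 times, and Egr2 exceeded Egr3 by 2.54, 1.40 and 4.61 times. In the table made from the reads, the Egr2 level in replicate 2 was 0.953 times that of Egr3. Egr4 and Wt1, the relatives with a similar zinc-finger domain, were not detected in the gene table, while Wt1 averaged 28.2 counts and 1.16 TPM in the table made from the reads.

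The NAB corepressors differed from each other in level and in how they varied. Nab1 (ENSMUSG00000002881.14, chr1:52457294-52500679, minus strand), which is widely expressed, had 28.9, 26.0 and 27.3 TPM from 766, 770 and 761 expected counts. Its mean was 27.4 ± 1.47 TPM (SD, n = 3), percentile 89.6 of protein-coding genes, and its values in the 3 libraries lay close together. Nab2 (ENSMUSG00000025402.12, chr10:127660918-127668568, minus strand), the corepressor that EGR proteins themselves induce, had 5.05, 11.6 and 3.91 TPM from 163, 308 and 115 expected counts, with a mean of 6.85 ± 4.15 TPM (SD, n = 3). Nab2 was highest in replicate 2 and lowest in replicate 3, so its library order ran opposite to that of Egr1 and Egr2. The ratio of Egr2 to Nab2 TPM was therefore 3.97, 0.759 and 8.52 in the 3 libraries, and that of Egr1 to Nab2 was 17.9, 6.70 and 39.8. The table made from the reads gave the same library order for Nab2, with 7.73, 12.1 and 5.36 TPM.

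Nab2 was the only member that overlapped other annotated genes, and whether the counting used strand is not given in the sources used here, so its reads and those of its neighbours may not be fully separated. The antisense gene Gm16229 covers 1646 bases of it and had 2.85, 2.33 and 0.780 TPM. Nemp1, a nuclear envelope protein gene on the opposite strand, shares 1668 bases with Nab2 and had 2.24, 4.31 and 3.67 TPM. Stat6, the interleukin-4 signal transducer, shares 40 bases at the other end and had a much higher level, 84.0 ± 9.86 TPM (SD, n = 3). Nemp1 was also highest in replicate 2, while Gm16229 was highest in replicate 1, and their part in the Nab2 values was not tested.

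Nr4a1 (ENSMUSG00000023034.7, chr15:101254269-101274795, plus strand), also called Nur77, is the NR4A receptor studied most in macrophages and in monocyte development. It led its family with 4.28, 5.88 and 10.8 TPM from 98, 121 and 218 expected counts, a mean of 6.98 ± 3.39 TPM (SD, n = 3). Replicate 3 held more than the other libraries, with a 2.14-fold range in CPM, and the SD of its log2 CPM was 0.60 with all libraries and 0.09 without replicate 3. The table made from the reads put it higher, at 11.1, 12.6 and 20.4 TPM, with replicate 3 again on top.

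Nr4a2 (ENSMUSG00000026826.13, chr2:57106830-57124003, minus strand), or Nurr1, which is needed for midbrain dopamine neurons, had only 27, 41 and 37 expected counts and 0.81, 1.32 and 1.03 TPM. It was the member with the smallest SD of log2 CPM, 0.138, in the gene table, and 0.388 in the table made from the reads, where Nab1 and Egr3 had smaller ones. Estimates of its level differed widely. The authors' posterior mean TPM was 4.19, 7.39 and 7.06, with a credibility interval in replicate 1 from 0.663 to 10.8 TPM. The table made from the reads gave 8.14, 5.78 and 7.54 TPM and 4.11 times as many counts as the gene table, where the median over detected protein-coding genes was 1.68 times.

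Nr4a3 (ENSMUSG00000028341.9, chr4:48045153-48086447, plus strand), or NOR-1, was the lowest member, with 0.24, 0.28 and 1.37 TPM from 7, 12 and 34 expected counts. Replicate 3 stood above both other libraries, at 0.513, 0.652 and 2.20 TMM-scaled CPM in replicates 1, 2 and 3, a range that the prior count brings to 4.10-fold. The SD of its log2 CPM was 1.09 in the gene table, 0.61 in the table made from the reads, and 0.23 in the gene table without replicate 3. Its mean of 17.7 counts met the detection limit only with replicate 3. In the table made from the reads it had 65.5, 84.0 and 163 counts, 5.89 times as many, and that table also gave replicate 3 the highest level, 1.87 TPM against 0.751 and 0.664 TPM in replicates 1 and 2. Within libraries Nr4a1 exceeded Nr4a3 by 17.8, 21 and 7.87 times in TPM.

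Ordered by mean TPM, the genes ran Egr1, Nab1, Egr2, Egr3, Nr4a1, Nab2, Nr4a2, Nr4a3. Egr1 and Nab1 did not overlap over the 3 libraries (lowest Egr1 value 77.7 TPM, highest Nab1 value 28.9 TPM), and neither did Egr2 and Egr3 (8.80 and 7.90 TPM) or Nab2 and Nr4a2 (3.91 and 1.32 TPM). Nab1 and Egr2 overlapped, as did Egr3, Nr4a1 and Nab2 among themselves, and Nr4a2 and Nr4a3. The table made from the reads turned Egr3 and Nr4a1 round in all 3 libraries, and put Nab2 above Nr4a2 in only 1 of 3.

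The spread between the libraries was set against counting noise by a chi-square test of each gene's counts, with Benjamini-Hochberg adjustment over all 14320 genes at 0.05. Variation beyond counting noise was called for 7 of the 8 members, the exception being Nr4a2, against 54.9% of all genes tested. Called variation compares these libraries only, and since nothing in the labels says that they came from separate mice, part of it may be technical. Leaving out replicate 2 also ended the call for Egr3, and leaving out replicate 3 also ended those for Nr4a1 and Nr4a3, while the share of all genes called fell to 27.9% and 41.6%. The median SD of log2 CPM was 0.58 over the members and 0.26 over all genes tested.

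In TMM-scaled CPM, 5 members were highest in replicate 3, namely Egr1, Egr2, Nr4a1, Nr4a2 and Nr4a3. Nr4a2, which was not called beyond counting noise, differed little, at 1.98, 2.23 and 2.40 CPM in replicates 1, 2 and 3. In TPM it was highest in replicate 2 (1.32 TPM, against 1.03 TPM in replicate 3). Egr3 and Nab1 were highest in replicate 1 in CPM, and Nab2 in replicate 2. Replicate 2 was the lowest library for 5 members, namely Egr1, Egr2, Egr3, Nab1 and Nr4a1. Among tested protein-coding genes 30.0% were highest in replicate 3 and 36.1% lowest in replicate 2. Of 23 other immediate-early genes, 21 were detected, and 15 of these were highest in replicate 3 and 18 lowest in replicate 2. None of the 6 macrophage markers was highest in replicate 3 in TMM-scaled CPM. In TPM Cd68 was highest there, at 42.1, 44.8 and 48.2 TPM in replicates 1, 2 and 3. Scaling matters for such an order, since in TPM 64.0% of protein-coding genes were lowest in replicate 1, and 14.1% lowest in replicate 2. In TPM 10 of the 21 other immediate-early genes were lowest in replicate 2, another 10 were lowest in replicate 1, and 18 were highest in replicate 3. Of the 8 members 4 were lowest in replicate 2, 3 were lowest in replicate 1, and 4 were highest in replicate 3. Among tested protein-coding genes 29.8% were highest in replicate 3 on that scale. Replicate 2 also had the smallest RNA input, 250 ng, and its part in these orders was not tested. In bulk RNA, fewer responding cells and less RNA in each cell cannot be told apart.

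**Figure D2:**
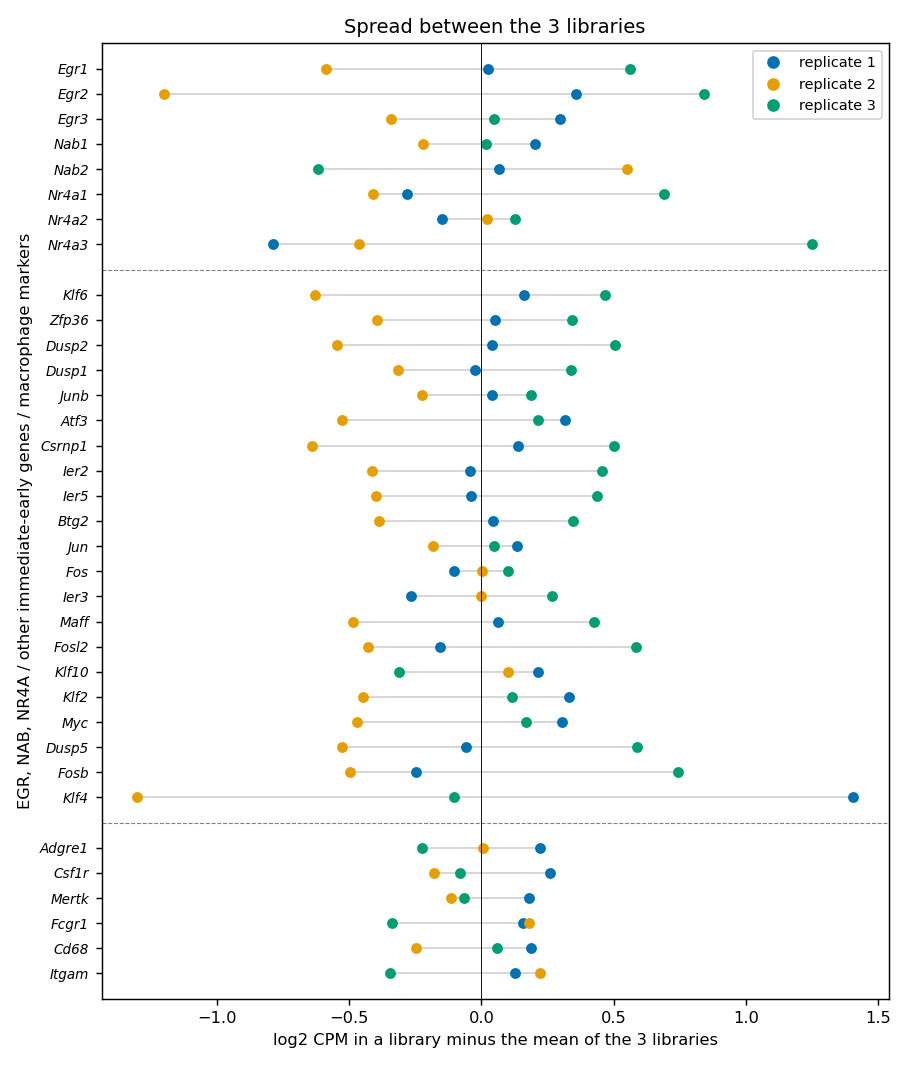
log2 CPM of each gene in each library, less the mean of the gene over the 3 libraries, for the 8 members (top), the 21 detected other immediate-early genes (middle) and the 6 macrophage markers (bottom), with colours for replicates. Replicate 3 is the rightmost point for 5 members and 15 other immediate-early genes, while Nab2 has replicate 2 on the right and replicate 3 on the left.

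Transcript tables show which annotated forms carried these levels, and shares are given as a percent of the counts of the gene, since shares of TPM weight short transcripts up. Egr1 has 2 annotated transcripts, and Egr1-202, the 3-exon form of 3036 bases, held 83.8% ± 2.83 of Egr1 counts (SD, n = 3) and 3241, 2678 and 5103 counts in the 3 libraries. Egr1-201, which starts 1384 bases further upstream, held the other 16.2%. Both shares were close in the table made from the reads, at 82.2% and 17.8%. Egr1 thus had the same leading form in both kinds of table and in every library. The exons of Egr1-202 run from 1384 to 1511, 1547 to 1964 and 2642 to 5134 bases. All lie inside the exons of Egr1-201, from 0 to 1964 and 2642 to 5162 bases, which limits how well the counts of these forms can be split.

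Of the 7 Egr2 transcripts, 4 start 2394 to 2455 bases after the first annotated start, all but Egr2-207 of them inside the promoter window shown above, and together these 4 held 91.4% ± 5.56 of Egr2 counts (SD, n = 3). Nearly all of this was Egr2-201, with 617, 330 and 992 counts. Egr2-203, which starts at an alternative first exon 3208 bases in, held 8.60% in the transcript table and 28.7% in the table made from the reads. The upstream forms Egr2-205 and Egr2-206 were listed at 0 counts in all libraries of both tables, where the limit that a count of 0 allows is 3 counts. For Egr3, 51.2% ± 8.11 of counts went to Egr3-202, an annotated single-exon transcript with the last part of the intron retained, and 45.5% ± 10.9 to the spliced Egr3-204 (SD, n = 3). Egr3-202 runs from 1536 to 5412 bases and holds the whole last exon of Egr3-204, from 1693 to 5348 bases. Most of its length is thus common to both forms, which limits how well their counts can be split. Egr3-202 had 218, 157 and 152 counts and Egr3-204 had 122, 151 and 190 counts, so the order of these forms was not the same in every library. Egr3-202 led in every library of the table made from the reads, with 67.5% of counts against 17.5% for Egr3-204.

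The Egr3 retained-intron share lay near the middle of the detected protein-coding genes that have such forms. Over 6710 of these genes with both coding and retained-intron transcripts, the median share of TPM in retained-intron forms was 41.7%. The share was taken over all annotated transcripts of a gene. On that scale Egr3 had 48.7% (percentile 61.2), Nr4a1 33.0% (percentile 35.8) and Nab1 23.9% (percentile 22.6). The other 5 genes have no annotated transcript of this kind.

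**Figure D3:**
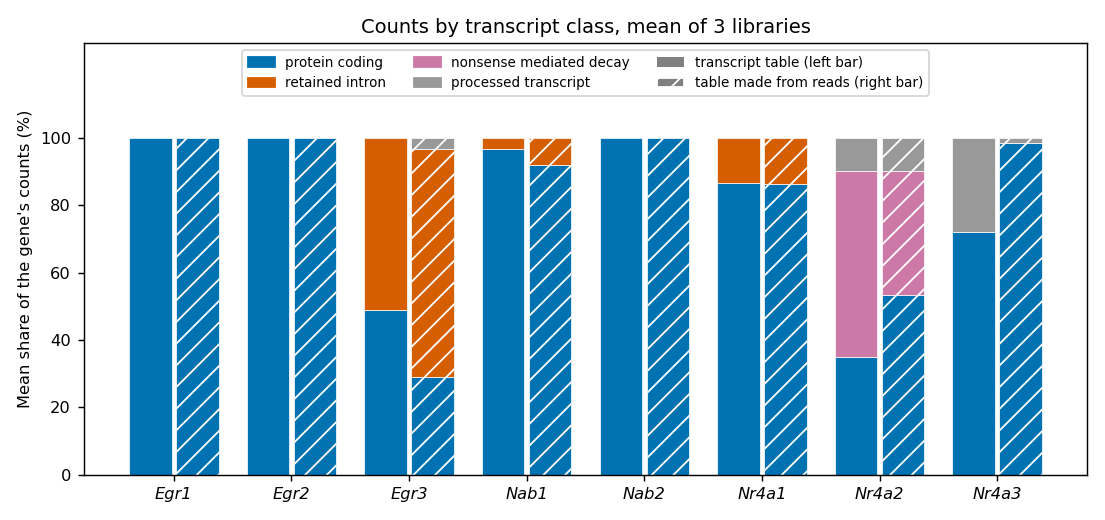
Mean share of each gene's counts by annotated transcript class, in percent, with plain bars for the transcript table on the left and hatched bars for the table made from the reads on the right of each pair. Retained-intron transcripts hold 51.2% of Egr3 counts in the transcript table and 13.4% of Nr4a1 counts, and a nonsense-mediated decay transcript holds 55.3% of Nr4a2 counts.

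Nab1 counts were spread over Nab1-201 (46.9% ± 7.92), Nab1-205 (32.5% ± 7.54) and Nab1-204 (17.3% ± 2.77; SD, n = 3 each). Nab1-205 starts 379 bases after Nab1-201, inside its first exon, and these 2 forms differ at other exons too. The table made from the reads turned them round, with 17.1% for Nab1-201 and 58.2% for Nab1-205. The retained-intron form Nab1-202, only 514 bases long, held 3.31% of counts. Nab2 counts were split between Nab2-201 and Nab2-202, which start within 100 bases of each other and together held 99.6%. Nab2-201 had 151, 150 and 62.3 counts and Nab2-202 had 12.0, 155 and 52.5 counts. In the table made from the reads Nab2-201 had 228, 445 and 147 counts and Nab2-202 had 0, 35.8 and 31.7 counts. There Nab2-201 carried most of the excess of replicate 2, while in the transcript table Nab2-202 did. Nab2-202 held 8.06% of counts on average in the table made from the reads, against 34.5% in the transcript table, so the split between these forms depends on the method.

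For Nr4a1, 82.6% ± 2.65 of counts (SD, n = 3) came from the transcripts that start 12577 bases into the gene, at the promoter window with 4 TGACG matches, and this was nearly all Nr4a1-201, with 78.8, 103 and 175 counts. Nr4a1-202, which starts at the far upstream exon, had 7.93, 0 and 8.47 counts. It had 18.0, 41.0 and 41.6 counts in the table made from the reads, or 13.9% of Nr4a1 counts against 3.99% in the transcript table, and the main start had 72.3% in the table made from the reads. The retained-intron form Nr4a1-204 had 10.3, 17.4 and 33.4 counts, lowest in replicate 1 and highest in replicate 3 like Nr4a1 as a whole in TPM. For Nr4a2, 81.0% ± 8.27 of counts (SD, n = 3) went to Nr4a2-203 and Nr4a2-206, which share the start of the window shown above. Nr4a2-206, a form annotated as a target of nonsense-mediated decay, had 9.59, 27.6 and 23.4 counts, and the coding Nr4a2-203 had 14.2, 6.49 and 3.22 counts, so neither led in all libraries. In the table made from the reads the start shared by Nr4a2-203 and Nr4a2-206 held only 48.6% ± 29.6 of counts (SD, n = 3). By library this was 82.2%, 36.8% and 26.7% in replicates 1, 2 and 3. There Nr4a2-202, which starts 10931 bases into the gene, held 36.2% of counts, against 1.21% in the transcript table. Nr4a3-203, with 0, 10.8 and 23.1 counts, was the leading form in replicates 2 and 3 but was listed at 0 in replicate 1. In the table made from the reads it held 73.0% ± 12.8 of Nr4a3 counts (SD, n = 3) and led in every library.

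**Figure D4:**
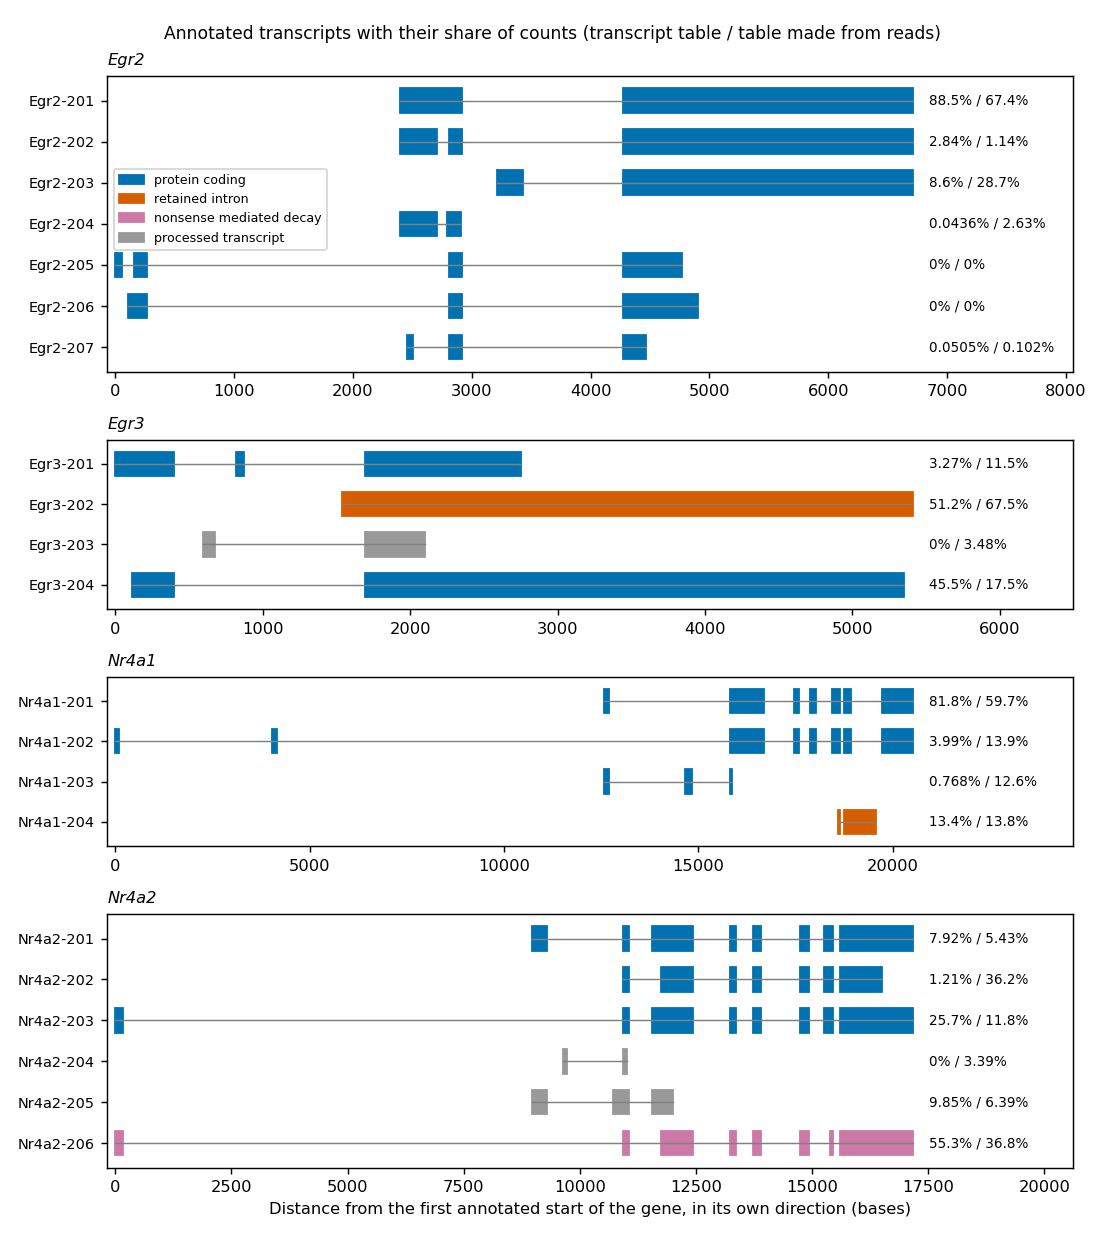
Annotated transcripts of Egr2, Egr3, Nr4a1 and Nr4a2, with exons as boxes coloured by class and distance from the first annotated start of the gene in bases. Beside each is its mean share of counts in the transcript table and in the table made from the reads. For Nr4a1 most counts belong to the start at 12577 bases, and for Egr2 none belong to the forms that begin at 0 and 108 bases.

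In gene structure the 3 EGR genes and Nab2 are short. Egr1, Egr2, Egr3 and Nab2 span 5.16, 6.71, 5.41 and 7.65 kb, against a median of 24.7 kb over detected protein-coding genes. The main coding transcripts of the EGR genes have 2 or 3 exons, where the median is 9. Nr4a1 and Nr4a2 span 20.5 and 17.2 kb with 7 and 8 exons, and Nab1 and Nr4a3 are long, at 43.4 and 41.3 kb. The 3′ untranslated regions of all 8 genes held the ATTTA pentamer, the core of the AU-rich elements through which many early-response mRNAs are degraded, at 1.62 to 5.53 copies per kb, each above the median of 1.34 per kb. Nr4a1 had the highest density. The nonamer TTATTTATT was found only in Nab2 among the 8, and in 7.99% of detected protein-coding genes with such a region.

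The upstream regulators were present in all libraries. All 6 SRF and ETS-type genes of the list were detected, with a median of 12.0 TPM. Mrtfa, an actin-regulated SRF coactivator, averaged 85.8 ± 34.2 TPM, Elk4 40.3 ± 7.51 TPM and Mrtfb 12.1 ± 0.623 TPM (SD, n = 3 each). Mrtfa had 60.5, 72.2 and 125 TPM, highest in replicate 3, while Srf itself had 5.99, 7.27 and 5.46 TPM, lowest in replicate 3. In TMM-scaled CPM 4 of the 6 genes were highest in replicate 3, against 30.0% of tested protein-coding genes. All 8 CREB factors and coactivators were detected, with a median of 28.5 TPM, led by the acetyltransferase Ep300 (55.5 ± 14.0 TPM), Creb1 (55.5 ± 10.3 TPM) and Crtc2 (41.5 ± 7.77 TPM; SD, n = 3 each). All 11 genes of the ERK route were detected, with a median of 26.0 TPM. The highest was Map3k8, the kinase that links Toll-like receptors to ERK in macrophages, at 95.1 ± 18.6 TPM (SD, n = 3). Variation beyond counting noise was called for 5 of the 6, 6 of the 8 and 7 of the 11 genes of these lists, against the 54.9% of all genes.

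Of 9 partners through which NAB and NR4A proteins act, 8 were detected, with a median of 11.0 TPM over the 9. Chd4, the remodeller of the NuRD complex that NAB2 binds, averaged 132 ± 15.8 TPM, Hdac1 94.6 ± 11.6 TPM and Chd3 61.4 ± 6.50 TPM (SD, n = 3 each). Of the retinoid X receptors, with which NR4A1 and NR4A2 can form heterodimers, Rxrg was the undetected gene, listed at 0 in the gene table and at a mean of 21.7 counts and 0.514 TPM in the table made from the reads. Calls beyond counting noise were made for 6 of the 8, against 54.9% of all genes tested.

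Of 8 genes described elsewhere as EGR1 targets in various cell types, 7 were detected, with a median of 56.3 TPM over the 8. All 7 were called as varying beyond counting noise, against 54.9% of all genes tested. The cytokine gene Tnf had 436, 417 and 667 TPM, and the adhesion molecule gene Icam1 had 357, 321 and 549 TPM. Csf1, which encodes the macrophage growth factor, had 59.1, 35.0 and 141 TPM, and F3 was not detected. In TMM-scaled CPM, 4 of the 7 were highest in replicate 3 and 5 lowest in replicate 2, against 30% and 36.1% of tested protein-coding genes. Tnf, Icam1 and Csf1 were among both, as Egr1 and Egr2 were, whereas Tgfb1 was highest in replicate 2 and lowest in replicate 3, and Pdgfa and Pdgfb were highest in replicate 1. Tnf, Icam1 and Csf1 are also driven by NF-kB, and 3 libraries of 1 group allow no test of a link.

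The other immediate-early genes gave a scale for these levels. Their median was 31.5 TPM over all 23, against 7.06 TPM over the 8 members. Of the 21 detected, 20 varied beyond counting noise, against 54.9% of all genes tested. The highest were Klf6 (272 ± 77.1 TPM), Zfp36, whose product destabilises AU-rich mRNAs (213 ± 50.7 TPM), and the phosphatase gene Dusp2 (184 ± 65.5 TPM; SD, n = 3 each), each above Egr1 by its mean. Fosl1 and Arc were not detected. The median SD of log2 CPM was 0.58 over the 8 members and 0.42 over the detected genes of this list.

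**Figure D5:**
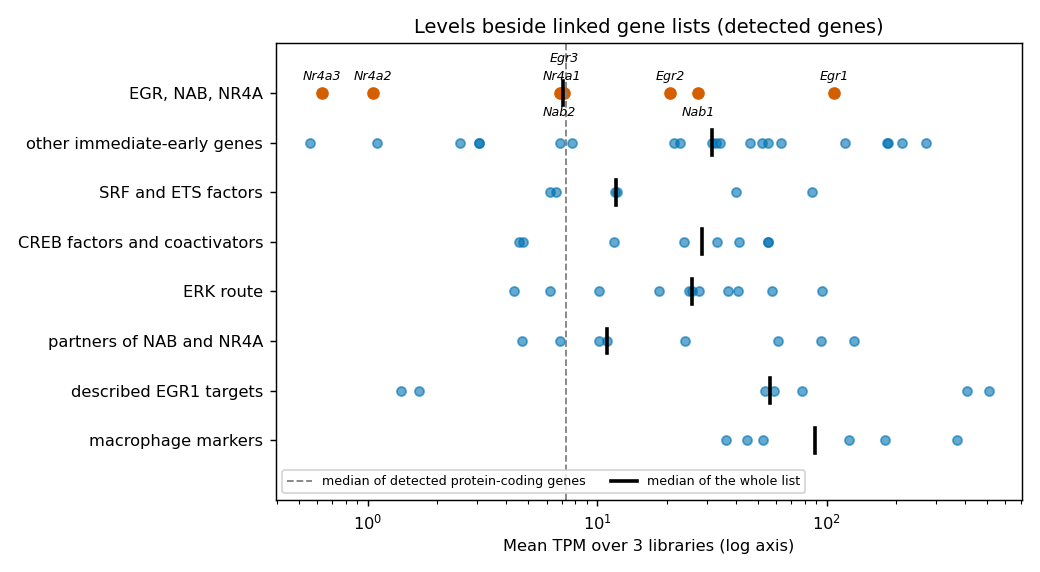
Mean TPM over the 3 libraries on a log axis for the 8 members (top, orange) and for the detected genes of linked lists (blue), with a black bar at the median of each whole list and a dashed line at the median of detected protein-coding genes, 7.32 TPM. The median of the members, 7.06 TPM, lies close to the dashed line, while Egr1 lies among the highest genes of the other lists.

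The protein-coding genes whose levels were nearest to those of Egr1, by Euclidean distance of log2(TPM + 1) over the 3 libraries, were Hspa9 (distance 0.22), Socs3 (0.22) and Lrp12 (0.23). Hspa9, a mitochondrial chaperone gene, had 87.5, 88.7 and 144 TPM. Socs3, a feedback inhibitor of cytokine signalling, had 92.7, 87.0 and 140 TPM. Lrp12, a lipoprotein receptor relative, had 101, 83.2 and 142 TPM. Each was highest in replicate 3, and the measure takes level and library order together. With the table made from the reads, 0 of these 3 genes remained among the nearest 3.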

How the data were processed

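Per the file headers, the authors deposited gene tables of expected counts and TPM, with a posterior mean TPM and the bounds of its credibility interval as scores of the estimate, transcript tables in the same layout, and transcript tables of estimated counts and TPM made directly from the reads. Per the submitters' processing notes the annotation was GENCODE M21 on mm10. The aligner, its version and the use of strand were not given in the sources used here. Entries naming no gene (1.13%, 0.324% and 0.279% of counts in replicates 1, 2 and 3) were left out of library sizes.

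The members and lists were chosen with earlier results of these data known. A gene was detected at a mean of 10 expected counts. CPM used TMM factors from edgeR 4.0.16 (R 4.3.3), with a prior count of 0.5 on the log2 scale. With 1 group there is no contrast. Counts, rounded to whole numbers, were compared with Poisson sampling by a chi-square test per gene in scipy 1.17.1, which was tested on simulated data. Dispersions came from an intercept-only edgeR fit. Size factors of DESeq2 1.42.0 were an alternative. Counting limits, such as 3 counts for a value of 0, cover counting error only. Named were all 8 members, the 3 highest genes and up to 2 undetected genes of each list, the 3 genes nearest to the highest member, and genes overlapping a member. Cell type markers were named for that role, and Srf, Tgfb1, Pdgfa and Pdgfb for library orders unlike that of Egr1. Some genes that the rule names are not reported here.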

Additional observations from a re-analysis of the deposited data

How the results depend on the processing

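Detection of all 8 members was unchanged at a mean of 5 counts, in the table made from the reads and without replicate 1 or 2, and Nr4a3 was lost at a mean of 20 counts, with 10 counts asked of every library, and without replicate 3, so the count without 1 library ran from 7 to 8. Calls beyond counting noise came to 7, 6 and 5 members without replicates 1, 2 and 3, beside 43.5%, 27.9% and 41.6% of all genes tested. They stayed at 7 with DESeq2 size factors (54.7% of all genes), total counts (60%) or no filter (32.4%), and came to 8 in the table made from the reads (55.1%). With TPM in place of TMM-scaled CPM, a comparison added after seeing the data, 10 of the other immediate-early genes were lowest in replicate 2, against 18 as reported, and 4 members, against 5, while the share over all tested protein-coding genes was 14.1%, against 36.1%. Scaling TPM to protein-coding genes alone raised all 8 means by construction. The table made from the reads moved 4 of the 8 mean levels and for 6 genes the share of TPM of the transcript that led in TPM (Nab1-204 for Nab1 and Nr4a3-202 for Nr4a3, unlike in counts) by more than the SD between libraries. The cause was not tested. No paired analysis was possible because the series has 1 group. Depth limits Nr4a2 and Nr4a3 most, at 7 to 41 expected counts in a library.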
